A study of Mus musculus with 12 samples.

Results

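Skin of mice at the highest of the labelled levels of tick exposure, ticks 3x, was compared with skin labelled naïve, taken here as unbitten. The comparison rests on 5 of the 12 RNA sequencing libraries of the series, chosen by their immunization label: 3 libraries labelled ticks 3x (called 3x below) and 2 labelled naïve. The 5 share a title series with 3 libraries labelled ticks 2x. First exposure (3 libraries) and saliva immune (1 library) have titles of another series.

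Each library was made from total RNA of a whole skin biopsy. In 3x the biopsy was taken at a bite, 4 days after ticks attached. The naive libraries are described both as having no bite and as 4 days after tick bite. They were used as unbitten skin because of their immunization label, naïve. Whether 3x counts the infestation that was sampled is not stated in the labels, nor is it stated whether each library came from a separate mouse or what strain, sex and age the mice had. The tick species is also not given in the sources used here. The p-values below therefore measure the spread between these samples, which may be technical in part.

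Ticks feed for days and inject saliva that acts on clotting, pain, itch and immunity. In skin that meets ticks repeatedly, basophils, mast cells, eosinophils and helper T cells of the type 2 kind are the cells best known from work on acquired tick resistance. Mice are known to acquire such resistance less readily than guinea pigs, and the title of the series sets those species side by side.

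Estimated depth was 29.8 M (mega) and 12.5 M reads in naive replicates 1 and 2, and 20.1 M to 21.4 M in the 3x libraries. A level of 3 reads, used as a floor of detection, lay between 0.101 and 0.24 CPM (a gene's reads per M reads of its library) and covers counting error only. The label of skin held in all 5 libraries: the mean of the epidermal keratinocyte list lay between 9.17 and 10.2 on the log2(CPM + 1) scale. Other tissues varied inside both groups. The hair follicle list stood at 7.38 and 1.10 in the naive libraries and at 5.01, 6.55 and 0.94 in 3x. The skeletal muscle list stood at 9.67 and 8.85 in naive skin and at 7.21, 7.85 and 10.2 in 3x. Thus 3x replicate 3 held the most muscle and the least hair follicle of the 5, and it stands apart from the other two 3x libraries in most immune lists described below. Naive replicate 1 alone held many transcripts of milk proteins. Beside a list's median, the values without 1 of the 5 libraries are given where they moved it by over 1.5 times or turned its sign.

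Of 16091 tested genes, limma called 1 higher in 3x than in naive skin (0.00621%) and none lower (0.0%), at a Benjamini-Hochberg adjusted p below 0.05. At an unadjusted p below 0.05 there were 797 higher (4.95%) and 363 lower (2.26%). Libraries of the 2 groups did not overlap for 2474 genes on the higher side (15.4%) and 1566 on the lower side (9.73%). Testing asked for 1 CPM in 2 of the 5 libraries, which 1 group alone could give. Counts without overlap, here and in the lists below, are therefore set in part by this filter. The median log2 fold change over all tested genes was 0.02, and -0.02 to 0.09 when 1 of the 5 libraries was left out, with 8524 genes above 0 and 7567 below. With array weights, which give a library far from its group less influence, 85 of the 16091 genes were called higher and 47 lower. With voom on the estimated reads none was called.

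**Figure D1:**
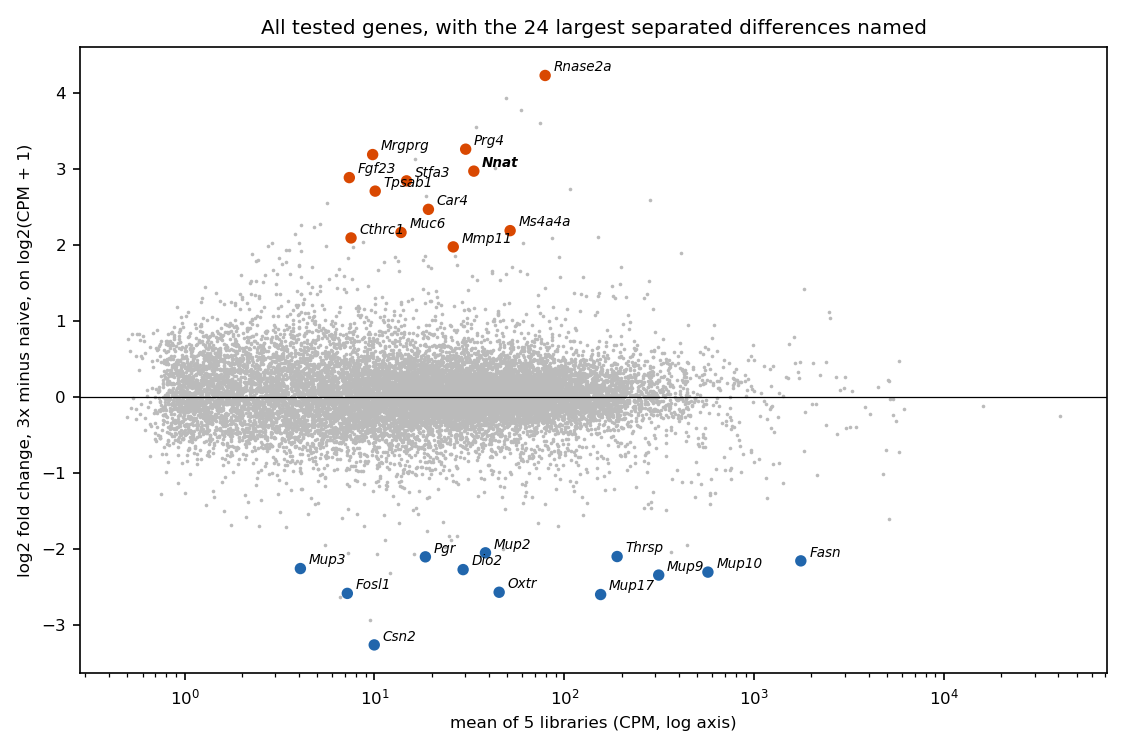
Each point is 1 of the 16091 tested genes, by its mean over the 5 libraries (CPM, log axis) and its log2 fold change of 3x over naive on log2(CPM + 1). The 12 largest differences on each side among genes whose libraries do not overlap are named; Nnat, in bold, is the only one that passed the adjusted threshold, and the highest unnamed points are genes whose libraries overlap.

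The gene that rose was Nnat (chromosome 2, 157560078 to 157562525, GRCm38.p6), which encodes neuronatin, a small membrane protein of the endoplasmic reticulum known from developing brain and from fat. It is imprinted, being expressed from the paternal copy. Naive replicates 1 and 2 had 4.97 and 6.39 CPM, and the 3x libraries had 45.8, 62.2 and 47.4 CPM. The lowest 3x library stood several times above the highest naive one, and 3x replicate 3 was like the other two. The log2 fold change was 2.98 (SE 0.29, limma adjusted p = 0.0345).

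Nnat was also higher in 3x than in every other library of the series. It stood at 15.3, 12.3 and 15.4 CPM in 2x and at 16.6, 10.6 and 7.59 CPM after first exposure, and the saliva immune library had 9.36 CPM. Against 2x the libraries did not overlap either, and the log2 fold change was 1.78 (SE 0.26), which limma did not call (adjusted p = 0.604). The call against naive skin was lost in a fit of only the 5 libraries (limma adjusted p = 0.142) and with voom (0.057). With the skeletal muscle list as a covariate it was lost as well (limma adjusted p = 0.145). It was also lost without any 1 of the naive, 3x or 2x libraries or without first exposure replicate 2. Its adjusted p ranged from 0.0105 to 0.944 over all settings, the highest being without naive replicate 1, while the log2 fold change stayed between 2.82 and 3.23.

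Nnat lies inside Blcap (chromosome 2, 157556362 to 157566361), another imprinted gene, and the sources used here do not say whether reads were counted by strand. Blcap had 34.9 and 31.1 CPM in naive skin and 45.8, 42.0 and 48.9 CPM in 3x, a log2 fold change of 0.45 (adjusted p = 0.544). The groups did not overlap for it, but the difference was far smaller than that of Nnat. Of the 28 tested genes in a list of imprinted genes, 7 had all 3x libraries above naive and 3 had all below, beside the 15.4% and 9.73% of all genes. The list's median was -0.07, and between -0.19 and 0.06 when 1 of the 5 libraries was left out. Kcnq1ot1, a long noncoding RNA that silences neighbouring imprinted genes, had 31.1 and 27.1 CPM in naive skin and 62.7, 60.2 and 56.1 CPM in 3x. Its log2 fold change of 1.01 (SE 0.19, adjusted p = 0.323) was the largest in the list against its SE after that of Nnat. It is antisense within Kcnq1, so the same limit on strand applies. H19, a noncoding RNA that is also abundant in muscle, ran from 126 to 680 CPM in 3x, with the highest value in the muscle-rich replicate 3.

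Hormone receptors held some of the largest differences on the lower side. Oxtr encodes the oxytocin receptor (chromosome 6, 112473683 to 112491035). It had 81.4 and 99.9 CPM in naive skin and 19.8, 16.6 and 9.02 CPM in 3x. All 3 bitten libraries lay far below both naive ones. The log2 fold change was -2.56 (SE 0.32, adjusted p = 0.104), which missed the threshold and passed it with quantile normalization (adjusted p = 0.0452) and array weights (adjusted p = 0.0132).

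Pgr, the progesterone receptor (chromosome 9, 8898900 to 8968611), had 42.4 and 25.1 CPM in naive skin and 10.9, 12.2 and 2.09 CPM in 3x. The groups did not overlap, and 3x replicate 3 was the lowest (log2 fold change -2.10, SE 0.56, adjusted p = 0.483). In 2x it stood at 0.344, 0.475 and 0.124 CPM, the last of these below the floor. The 3x libraries thus lay between naive and 2x skin for both receptors: Oxtr in 2x stood at 7.77, 4.86 and 8.81 CPM. First exposure was also below 3x, with Oxtr at 6.26, 5.46 and 6.51 CPM and Pgr at 1.15, 0.947 and 2.07 CPM. The saliva immune library had 16.2 CPM of Oxtr and 7.29 CPM of Pgr, within the 3x range. Against 2x the log2 fold change of Pgr was 2.59 (adjusted p = 0.864), and without 3x replicate 3 it was 3.26 and was called (adjusted p = 0.0406), the only call in that comparison under any setting.

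Prlr, the prolactin receptor, also had all 3x libraries below naive. It had 104 and 58.2 CPM against 39.4, 31.0 and 55.9 CPM, so that its 3x replicate 3 nearly reached naive replicate 2. Over the 15 tested hormone receptors, 6 were lower without overlap and none was higher, beside the 9.73% and 15.4% of all genes. The list's median was -0.27, or -0.17 without naive replicate 2. No member was called.

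Genes of fatty acid synthesis had lower levels in 3x. The list's 18 genes were collected after their values had been seen, so the counts describe them and nothing more. All 18 were lower in 3x than in naive skin, 15 of them without overlap, where all tested genes gave 9.73%, and the median log2 fold change was -1.21. The pathway runs from citrate through acetyl-CoA and malonyl-CoA to palmitate, which is then desaturated and lengthened.

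Acly splits citrate into acetyl-CoA. It had 661 and 851 CPM in naive skin and 328, 251 and 338 CPM in 3x (adjusted p = 0.261 for a log2 fold change of -1.31, SE 0.22). Acaca carboxylates acetyl-CoA in the rate-limiting step. Its naive libraries had 549 and 764 CPM and its 3x libraries 155, 106 and 238 CPM (log2 fold change -2.03, SE 0.38, adjusted p = 0.323). In both genes the highest 3x library was well under the lowest naive one.

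Fasn, the synthase that builds palmitate, had 2522 and 3955 CPM in naive skin and 696, 430 and 1197 CPM in 3x, with a log2 fold change of -2.15 (SE 0.55, adjusted p = 0.451). Thrsp, a regulator of lipogenesis that responds to thyroid hormone, had 284 and 383 CPM against 54.4, 44.8 and 182 CPM. Scd1, which desaturates the product, ran from 1605 to 4681 CPM in 3x and stood at 6656 and 10158 CPM in naive skin. In each of these genes 3x replicate 2 was the lowest and replicate 3 the nearest to naive skin. Dio2, the deiodinase that activates thyroid hormone inside cells, stood at 30.8 and 84.6 CPM in naive skin and at 14.1, 10.8 and 6.13 CPM in 3x, where the order of the 3x libraries differed.

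Pgd, of the pentose phosphate route that supplies NADPH for this synthesis, was among the steadiest. It had 157 and 148 CPM in naive skin and 105, 98.3 and 90.5 CPM in 3x (adjusted p = 0.273 for a log2 fold change of -0.63, SE 0.11). With array weights 7 of the 18 genes were called lower, out of 47 called lower over all 16091. Leaving out each of the 5 libraries gave list medians from -1.41 to -0.98.

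Genes that mark fat cells differed in both directions, with 14 of the 20 tested adipocyte genes below 0 and 6 above. Cfd, the serine protease adipsin that fat cells secrete, had 1021 and 1267 CPM in naive skin and 506, 679 and 899.9 CPM in 3x, below naive in every library (log2 fold change -0.75, SE 0.36, adjusted p = 0.731). Car3, a carbonic anhydrase abundant in fat and muscle, had 3576 and 3471 CPM against 1727, 2266 and 5019 CPM, the highest being in the muscle-rich replicate 3. Adipoq, the adipocyte hormone adiponectin, which was chosen after its values had been seen, had 293 and 362 CPM in naive skin and 282, 320 and 552 CPM in 3x, with overlap. Fabp4, the fatty acid carrier of adipocytes, had 964 and 1112 CPM against 1055, 1390 and 1799 CPM. Pck1, which makes glycerol for fat storage, lay on the other side: 136 and 198 CPM in naive skin and 285, 408 and 430 CPM in 3x (adjusted p = 0.621 for a log2 fold change of 1.16, SE 0.39). Of the 20, which include Acaca and Thrsp, 3 were lower and 1 higher without overlap, beside 9.73% and 15.4% of all genes. The median was -0.16, or -0.36 and -0.04 without naive replicates 1 and 2 and 0.01 and -0.41 without 3x replicates 1 and 3. The sebaceous gland list, which holds Fasn and Scd1, had 4 of 15 lower without overlap. Its median of 0.04 lay between -0.07 and 0.53 when 1 of the 5 libraries was left out. For fatty acid synthesis the other bitten libraries were low too: the list mean was 8.13 and 8.46 in naive skin, 7.09, 6.81 and 7.47 in 3x, 7.33, 6.75 and 7.58 in 2x, and 7.14, 6.80 and 7.01 after first exposure.

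**Figure D2:**
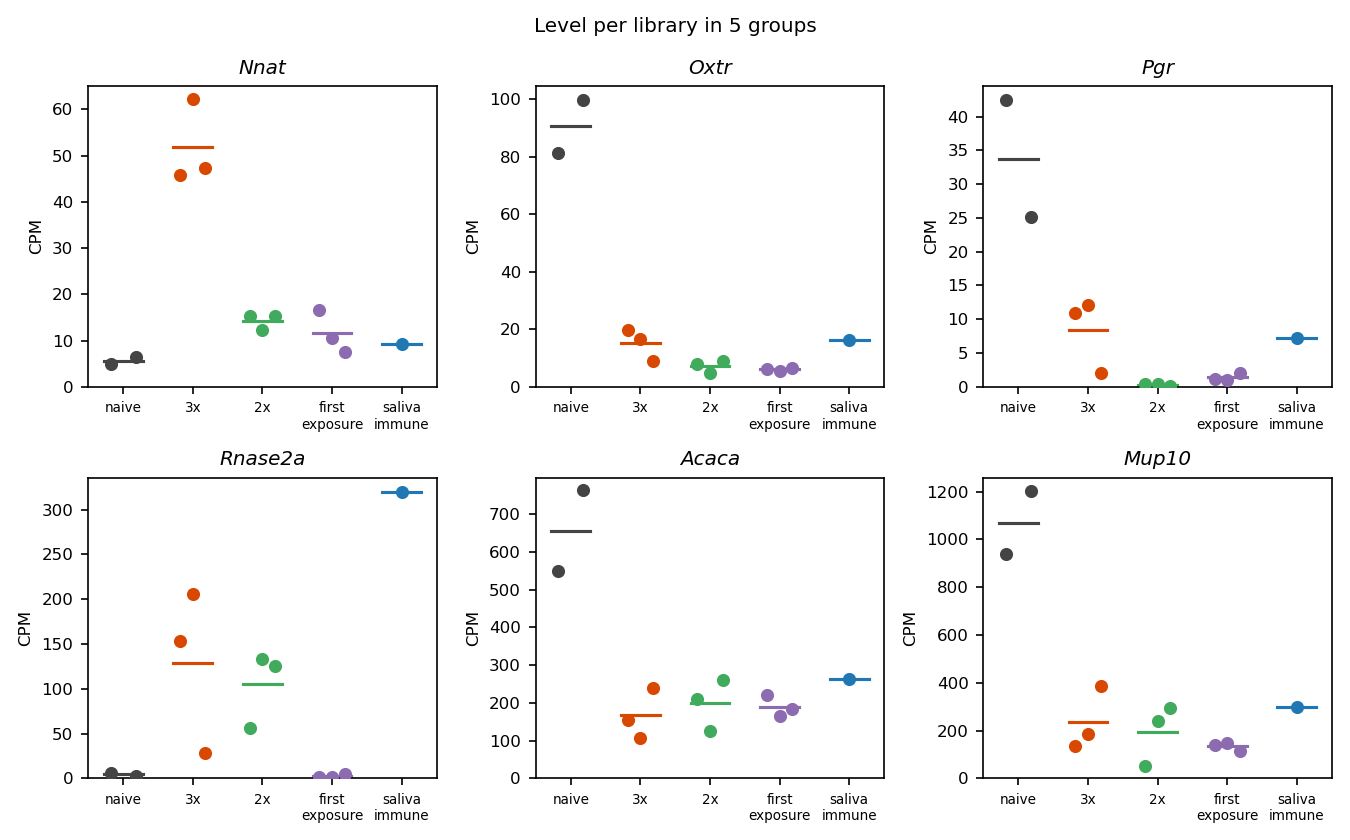
Levels in CPM of 6 genes in all 12 libraries, 1 point per library, with a line at each group's mean. In 3x Nnat stands between 45.8 and 62.2 CPM, above every other library, whereas Oxtr, Pgr, Acaca and Mup10 stand below both naive libraries and Rnase2a above them.

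The major urinary proteins (Mup genes) are small carriers of pheromones, made mainly in liver and also in several glands. They are encoded by near-identical neighbouring copies on chromosome 4, and reads may be shared between copies, so the values of single members are uncertain. The start regions of 3 members that were among the largest differences show how alike the copies are. Each sequence below covers 250 bases before to 50 after the start on which its window was set. It runs 5′ to 3′ on the minus strand of GRCm38.p6 from RefSeq, with the letters TATATAAGG in capitals. For Mup3 that start is the outer end of the gene, 62087317. For Mup10 and Mup9 it lies inside the gene, whose outer ends are 60582276 and 60422085. The windows are chr4:60582106-60582405 (Mup10), chr4:60421903-60422202 (Mup9) and chr4:62087268-62087567 (Mup3).
Mup10: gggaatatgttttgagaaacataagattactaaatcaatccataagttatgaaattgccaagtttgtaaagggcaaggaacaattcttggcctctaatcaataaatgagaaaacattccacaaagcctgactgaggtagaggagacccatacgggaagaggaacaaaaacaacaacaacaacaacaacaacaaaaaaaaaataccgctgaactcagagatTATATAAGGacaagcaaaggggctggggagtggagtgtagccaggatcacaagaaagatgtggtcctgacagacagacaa
Mup9: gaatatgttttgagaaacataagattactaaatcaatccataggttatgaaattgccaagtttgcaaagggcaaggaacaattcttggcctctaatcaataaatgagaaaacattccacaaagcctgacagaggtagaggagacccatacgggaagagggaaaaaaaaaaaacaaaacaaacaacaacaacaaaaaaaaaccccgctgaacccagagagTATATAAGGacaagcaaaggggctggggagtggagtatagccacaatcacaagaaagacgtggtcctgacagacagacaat
Mup3: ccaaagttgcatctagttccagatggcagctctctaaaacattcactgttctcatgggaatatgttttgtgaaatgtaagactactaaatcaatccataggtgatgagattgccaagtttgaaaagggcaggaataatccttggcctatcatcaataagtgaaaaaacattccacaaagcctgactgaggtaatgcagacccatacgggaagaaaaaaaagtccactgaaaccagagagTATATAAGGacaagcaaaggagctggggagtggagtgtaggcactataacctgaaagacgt

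Aligned to each other, the windows of Mup9 and Mup10 were identical at 94.61% of the aligned bases, and that of Mup3 was identical to them at 88.48% and 87.35%. A window was found for 7 of the 12 tested Mup genes. The letters TATATAAGG, looked for on both strands, were in 6 of these 7 and in 0.307% of 32851 promoter windows of the same length. This match describes the letters and not a site in use.

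The table holds 19 Mup genes, of which 12 were tested, and in all 12 every 3x library lay below both naive ones, beside 9.73% of all genes. They too were grouped after their values had been seen. The median log2 fold change was -1.83, or -1.125 with no filter on low values. Testing asked for 1 CPM in 2 of the 5 libraries, which the naive libraries alone could give. Mup13 passed in this way, with 3.12 and 2.21 CPM in naive skin and 0.19, 0.23 and 0.73 CPM in 3x. The count of 12 is therefore set in part by the filter. Mup10 had 939.5 and 1202 CPM in naive skin and 137, 188 and 388 CPM in 3x (adjusted p = 0.546 for a log2 fold change of -2.30, SE 0.68). Mup9 had 502 and 687 CPM against 73.1, 101 and 208 CPM, and Mup17 had 299.6 and 313 CPM against 32.5, 42.5 and 89.3 CPM. The 3 genes kept the same order of libraries, with 3x replicate 1 the lowest and replicate 3 the highest of 3x.

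Mup3, the least alike of the copies printed, stood at 7.65 and 9.27 CPM in naive skin and at 0.487, 0.514 and 2.44 CPM in 3x (adjusted p = 0.261 for a log2 fold change of -2.25, SE 0.37). Mup2 gave a log2 fold change of -2.04. Array weights called 9 of the 12 lower, out of 47 over all 16091 genes. As with fatty acid synthesis, all bitten libraries were low: the Mup list mean was 4.70 and 4.99 in naive skin, 2.68, 2.94 and 3.68 in 3x, 2.10, 3.33 and 3.26 in 2x, 2.92, 3.05 and 2.81 after first exposure and 3.53 in the saliva immune library.

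Milk protein genes and other mammary genes were also lower, but here 1 naive library decides the size. The mean of the mammary list was 5.02 in naive replicate 1 and 1.97 in naive replicate 2, against 1.03, 1.39 and 2.59 in 3x. Csn2, beta-casein, had 46.3 and 2.32 CPM in naive skin and was at 0, 0 and 1.25 CPM in 3x. The list's median of -1.85 became -0.49 without naive replicate 1 and -3.63 without naive replicate 2. Csn2 itself went from -3.26 to -1.34 without naive replicate 1. The Mup and fatty acid lists, by contrast, stood higher in naive replicate 2, the library with fewer milk transcripts. Areg, an epidermal growth factor ligand that belongs to the mammary list and to the list of wound keratins and alarm genes, did not share this split: it had 32.1 and 33.6 CPM in naive skin and 9.15, 14.0 and 5.68 CPM in 3x (adjusted p = 0.409 for a log2 fold change of -1.75, SE 0.42).

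The largest positive difference was that of Rnase2a (chromosome 14, 51255261 to 51256112), an eosinophil-associated ribonuclease. Naive skin had 6.01 and 2.80 CPM, and 3x had 153, 206 and 27.8 CPM. Even the lowest 3x library, replicate 3, exceeded both naive libraries. The log2 fold change was 4.24 (SE 0.81, adjusted p = 0.342). It belongs to a family of close copies, so its reads may be shared. In 2x it stood at 56.7, 134 and 126 CPM, which overlaps 3x, and in the saliva immune library at 320 CPM, while first exposure had 1.22, 1.34 and 4.66 CPM.

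Other eosinophil genes did not follow it closely. Ccr3, the eotaxin receptor, had 2.79 and 0.879 CPM in naive skin and 3.21, 5.98 and 2.39 CPM in 3x. Siglecf, an inhibitory lectin of eosinophils, overlapped between the groups, as did Ccl11, the ligand eotaxin. Of the 9 tested members of the eosinophil list 8 had a positive difference. Without overlap, Rnase2a alone was higher and 1 gene lower, near the 15.4% and 9.73% of all genes. The median of 0.35 became 0.69 and 0.08 without naive replicates 1 and 2, and 0.14 and 0.57 without 3x replicates 2 and 3. In a bulk biopsy, more cells of a type and more RNA per cell cannot be told apart, here and in every cell list that follows.

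Mast cell genes gave the highest median of the immune lists. Of 19 tested genes 18 had a positive difference, 11 were higher without overlap, beside 15.4% of all genes, and the median was 0.86. None was called. Tpsab1 and Fcer1a, both under 1 CPM in naive skin, passed the filter through 3x alone, so the count of 11 is set in part by the filter. Cpa3, the carboxypeptidase of mast cell granules, had 57.2 and 45.2 CPM in naive skin and 170, 118 and 59.0 CPM in 3x. Mcpt4, a chymase that connective tissue mast cells store, had 73.4 and 60.3 CPM against 186, 130 and 74.1 CPM. In both, 3x replicate 3 lay only just above naive skin and replicate 1 was the highest.

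Tpsb2, a granule tryptase, had 31.6 and 19.4 CPM in naive skin and 143, 80.8 and 41.8 CPM in 3x. Tpsab1, a tryptase gene that RefSeq labels a transcribed pseudogene, had 0.537 and 0.639 CPM against 36.7, 11.0 and 1.49 CPM (log2 fold change 2.71, SE 1.24, adjusted p = 0.701). Tpsb2 and Tpsab1 are similar in sequence, so some of their reads may be shared. Fcer1a, the chain of the high-affinity receptor that binds IgE, had 0.168 and 0.160 CPM in naive skin, the latter under the floor, and 7.93, 4.25 and 1.15 CPM in 3x (adjusted p = 0.617 for a log2 fold change of 2.00, SE 0.67). Mrgprx2, a receptor gene of the same list, had 2.05 and 2.00 CPM in naive skin and 9.59, 6.36 and 3.44 CPM in 3x. All 4 genes kept the order of replicate 1 over 2 over 3.

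The mean of the mast cell list was 3.40 and 3.25 in naive skin and 4.87, 4.42 and 3.43 in 3x. Without 3x replicate 3 the median log2 fold change was 1.40. Among the 3x libraries replicate 3 held the most muscle, whose part in this order was not tested. Mrgprg, a receptor of sensory neurons, had another order: 0.907 and 0.320 CPM in naive skin and 14.7, 5.98 and 27.0 CPM in 3x, the highest being in replicate 3 (log2 fold change 3.20, SE 0.72, adjusted p = 0.398).

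Mcpt8, the serine protease that marks mouse basophils, was at 0 in both naive libraries and had 6.91, 7.57 and 0 CPM in 3x. It was thus well above the floor in 3x replicates 1 and 2 and not detected in replicate 3. Il4, the cytokine that basophils and T helper cells make, had 0.403 and 0.399 CPM in naive skin and 1.75, 2.76 and 0 CPM in 3x, the same split. Il13, the related cytokine, did not reach the minimum for testing, with 0.436 and 0.240 CPM against 1.22, 0.888 and 0.498 CPM. Over the 16 tested basophil genes 13 had a positive difference, but just 1 was higher and 1 lower without overlap, below the 15.4% and 9.73% of all genes. The median of 0.58 became 0.36, 0.23 and 1.04 without 3x replicates 1, 2 and 3. Il3ra, a chain of the receptor for interleukin 3, a growth factor of basophils, was the higher one: 2.55 and 2.56 CPM in naive skin and 5.26, 7.20 and 4.13 CPM in 3x. Ptger3, a prostaglandin E2 receptor, was the lower one, with 31.6 and 45.9 CPM against 10.1, 8.41 and 18.1 CPM (log2 fold change -1.63, SE 0.46, adjusted p = 0.497).

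In the list of type 2 cytokines, alarmins and their receptors, 5 of 17 genes were higher without overlap and 1 lower, beside 15.4% and 9.73% of all genes. The median of 0.36 became 0.06 without naive replicate 1, and 0.16 and 0.61 without 3x replicates 1 and 3. Il1rl1, the receptor for the alarmin interleukin 33, had 11.8 and 8.23 CPM in naive skin and 47.2, 50.8 and 18.4 CPM in 3x (adjusted p = 0.628 for a log2 fold change of 1.75, SE 0.64). Every 3x library exceeded naive skin, and replicate 3 was again the lowest. Gata3, the transcription factor of type 2 lymphocytes that keratinocytes also express, had 235 and 226 CPM against 410, 303 and 299.9 CPM. Cish, a target and inhibitor of cytokine signalling, lay on the other side, with 72.5 and 108 CPM in naive skin and 60.7, 59.7 and 35.2 CPM in 3x.

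T cell genes lay higher in most cases. Of 22 tested genes 21 had a positive difference and 11 were higher without overlap, beside 15.4% of all genes. Cd3d and Cd27 among the 11 were under 1 CPM in naive skin and passed the filter through 3x alone. This count too is set in part by the filter. The median was 0.74, and between 0.57 and 1.01 when 1 of the 5 libraries was left out. Cd4, the coreceptor of helper T cells, had 1.01 and 1.60 CPM in naive skin and 9.83, 6.03 and 0.946 CPM in 3x, where replicate 3 lay under both naive libraries. Il7r, the receptor for a survival cytokine of T cells, had 4.63 and 5.19 CPM against 14.4, 15.7 and 7.82 CPM, without overlap. Cd2, an adhesion molecule of T cells, had 2.62 and 2.08 CPM against 6.96, 6.78 and 3.64 CPM. Ctla4, an inhibitory receptor of regulatory T cells, had 1.04 and 2.32 CPM in naive skin and 6.72, 7.06 and 2.59 CPM in 3x. In the regulatory T cell list 3 of 12 genes were higher without overlap, beside the same 15.4%, and none lower. Tnfrsf9, among the 3, passed the filter through 3x alone. The median of 0.51 became 0.19, 0.24 and 0.76 without 3x replicates 1, 2 and 3.

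Cytotoxic genes were split between the 3x libraries. Gzmb, granzyme B, had 0.638 and 0.0799 CPM in naive skin and 6.81, 8.60 and 0.199 CPM in 3x, and Gzma had the same split. Of 7 tested genes in the natural killer and cytotoxic list 2 were higher and 1 lower without overlap, beside 15.4% and 9.73% of all genes. The median of 0.50 became 0.28 and 0.78 without naive replicates 1 and 2, and 0.17 without 3x replicate 1. For B cells only 2 of 17 genes in the table were tested, Ighm and Igha, and both overlapped between the groups.

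**Figure D3:**
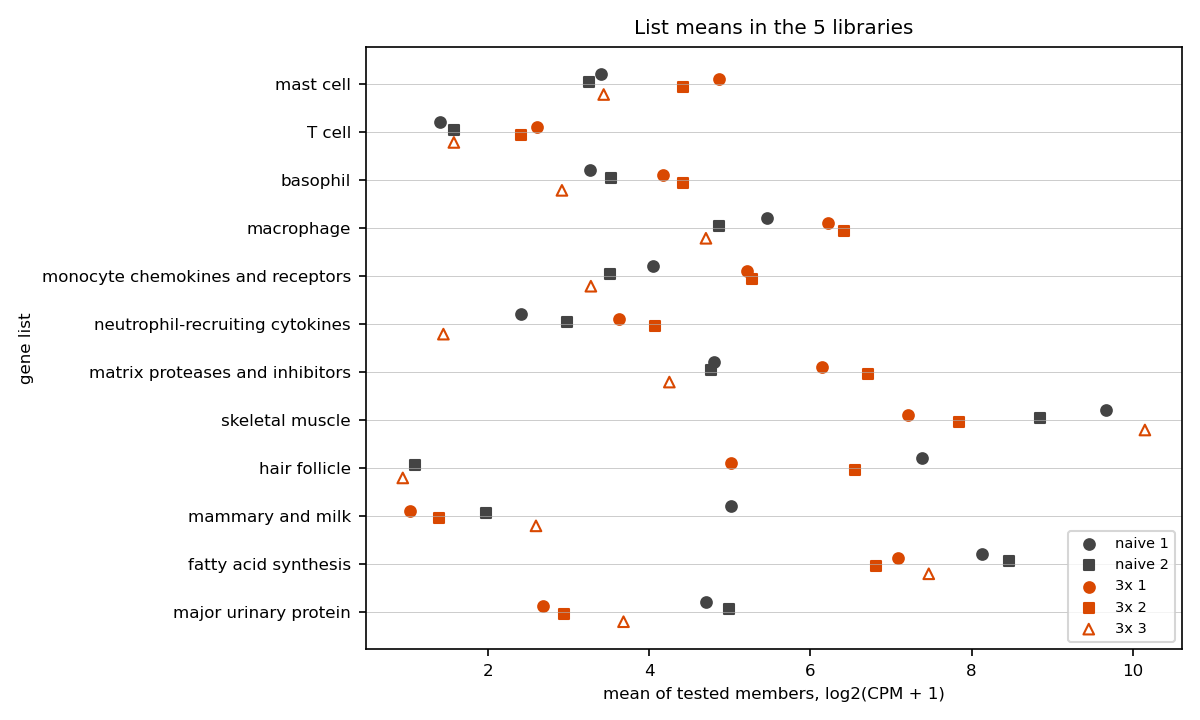
Mean of the tested members of 12 gene lists in log2(CPM + 1), 1 symbol per library: naive replicates 1 and 2 in grey, 3x replicates 1 and 2 in filled orange, 3x replicate 3 as an open triangle. For the mast cell list 3x replicates 1 and 2 stand at 4.87 and 4.42 and replicate 3 at 3.43, beside naive skin at 3.40 and 3.25; the fatty acid and Mup lists are below naive in all 3.

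Macrophage genes differed between the 3x libraries more than between the groups. The list's mean was 5.46 and 4.86 in naive skin and 6.22, 6.42 and 4.70 in 3x. Of 21 tested genes 17 had a positive difference, yet 1 was higher without overlap, below the 15.4% of all genes. The median of 0.56 became 0.86 and 0.29 without naive replicates 1 and 2, and 0.34, 0.32 and 1.02 without 3x replicates 1, 2 and 3. That 1 gene was Cd163, the scavenger receptor for haemoglobin, with 157 and 103 CPM in naive skin and 597, 1020 and 179 CPM in 3x (adjusted p = 0.741 for a log2 fold change of 1.90, SE 0.95). Ms4a4a, of a family of membrane proteins found on macrophages, had 14.0 and 9.90 CPM against 87.6, 132 and 16.04 CPM. For both genes replicate 3 was just above naive skin.

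Among genes of alternative macrophage activation, Arg1, the arginase of that state, had 30.6 and 31.2 CPM in naive skin and 250, 412 and 24.3 CPM in 3x. Its replicate 3 lay below both naive libraries. Clec10a, a lectin induced by interleukin 4, had 89.4 and 58.6 CPM against 197, 298 and 106 CPM, without overlap (log2 fold change 1.34, SE 0.57, adjusted p = 0.69). Of the 15 tested genes of this list 1 was higher and 2 lower without overlap, beside 15.4% and 9.73% of all genes. The median of 0.66 became 0.38 without naive replicate 2, and 0.21 and 1.05 without 3x replicates 2 and 3.

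Chemokines that attract monocytes had the same split. Ccl8, a ligand of CCR8 in mice, had 61.3 and 29.9 CPM in naive skin and 612, 661 and 44.7 CPM in 3x. Ccl3 had 0.806 and 1.52 CPM against 15.3, 20.01 and 0.747 CPM. Of 14 tested genes 1 was higher and 1 lower without overlap, below the 15.4% and 9.73% of all genes. The median of 0.75 became 1.18 and 0.47 without naive replicates 1 and 2, and 0.40, 0.32 and 1.37 without 3x replicates 1, 2 and 3. Against 2x, 1 of the 14 was on the higher side and the median was -0.67.

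Genes of neutrophils and of their recruitment were not on 1 side. In the neutrophil list 8 of 16 genes had a positive difference and the median was -0.06, or 0.72 with array weights, 0.73 without naive replicate 2 and 0.70 without 3x replicate 3. Leaving out naive replicate 1 gave -0.24, and leaving out 3x replicates 1 and 2 gave -0.27 and -0.22. Il1b, a cytokine that recruits neutrophils, had 26.5 and 77.1 CPM in naive skin and 33.5, 47.7 and 3.49 CPM in 3x. Tnf, another inflammatory cytokine, did not overlap: 1.75 and 2.80 CPM against 8.71, 5.47 and 3.88 CPM (log2 fold change 1.06, SE 0.37, adjusted p = 0.621). The recruiting list had a median of 0.43, which became 0.96 without 3x replicate 3 and -0.43 and -0.68 without replicates 1 and 2. It was 0.09 and 0.76 without naive replicates 1 and 2. Stfa3, a stefin of neutrophils, ranged over 61.1, 11.1 and 0.598 CPM in 3x, beside 0.470 and 0.479 CPM in naive skin. It comes from a cluster of close copies, so its reads may be shared.

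Matrix proteases and clotting factors added to the difference between 3x replicates 1 and 2 and the rest. Mmp13, a collagenase, had 0.336 and 0.879 CPM in naive skin and 67.2, 177 and 0.199 CPM in 3x. F7, the factor that starts the extrinsic clotting pathway, was at 0 in both naive libraries and had 3.84, 7.11 and 0.299 CPM in 3x. In the protease list 1 of 17 genes was higher and 2 were lower without overlap, beside 15.4% and 9.73% of all genes. The median of 0.61 became 0.27, 0.15 and 1.26 without 3x replicates 1, 2 and 3. Mmp11, a stromal protease, was separate in all libraries, with 8.43 and 5.99 CPM in naive skin and 44.7, 60.0 and 10.8 CPM in 3x. Cthrc1, a secreted protein of activated fibroblasts, had 2.15 and 0.879 CPM against 13.8, 17.7 and 3.09 CPM. The fibroblast and collagen list as a whole had a median of -0.18, which turned to 0.20 without 3x replicate 3, 0.07 without naive replicate 1 and 0.11 with array weights. It was -0.32 without naive replicate 2 and -0.28 and -0.36 without 3x replicates 1 and 2. Col3a1, a fibrillar collagen, had 4163 and 3372 CPM in naive skin and 6465, 6755 and 1593 CPM in 3x.

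Several other genes with large positive differences also had 3x replicate 3 as the lowest of the 3x libraries. Prg4, lubricin, had 2.65 and 2.56 CPM in naive skin and 41.2, 95.3 and 9.30 CPM in 3x. Car4, a membrane carbonic anhydrase, had 3.19 and 3.60 CPM against 33.0, 48.8 and 7.57 CPM. Muc6, a gel-forming mucin, had 3.42 and 3.60 CPM against 22.9, 27.9 and 11.1 CPM. All 3 were clear of naive skin in every 3x library. Fgf23, the hormone that lowers blood phosphate, was at or under the floor in naive skin (0.0672 and 0 CPM) and had 27.1, 9.07 and 0.598 CPM in 3x.

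In the epidermal keratinocyte list 18 of 20 genes had a positive difference, but the 3 that were higher without overlap are near the 15.4% of all genes. The median of 0.36 became 0.04 and 0.67 without naive replicates 1 and 2, and 0.17 without 3x replicate 1. Dst, which anchors the keratin network to hemidesmosomes, had 215 and 374 CPM in naive skin and 553, 541 and 554 CPM in 3x. Krt6a, a keratin of wounded and hyperproliferative epidermis, had 125 and 107 CPM against 419, 253 and 111 CPM, so replicate 3 lay between the naive libraries. Il1f6, which encodes interleukin 36 alpha, had 0.168 and 0.479 CPM against 4.38, 2.52 and 0.548 CPM. Of 18 genes in the wound keratin and alarm list 2 were higher and 1 lower without overlap, below the 15.4% and 9.73% of all genes. The median of 0.29 turned to -0.11 and -0.05 without 3x replicates 1 and 2 and to -0.23 with the skeletal muscle list as a covariate. Leaving out 3x replicate 3 gave 0.78, and leaving out naive replicate 2 gave 0.72.

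Genes of antigen presenting cells were not on 1 side. In the list of Langerhans and dendritic cells 12 of 15 had a positive difference, with 3 higher and 1 lower without overlap, beside 15.4% and 9.73% of all genes. The median of 0.44 became 0.27 without 3x replicate 2. Cd207, langerin of Langerhans cells, had 14.7 and 26.8 CPM in naive skin and 26.6, 23.6 and 21.5 CPM in 3x, within the naive range. Cd83, an activation marker of dendritic cells, was lower in every 3x library: 25.8 and 30.8 CPM against 7.93, 14.0 and 6.57 CPM (log2 fold change -1.54, SE 0.40, adjusted p = 0.465). The 8 genes of MHC class II all had a positive difference with a median of 0.21, and 1 was without overlap. That median was 0.13, 0.12 and 0.34 without 3x replicates 1, 2 and 3.

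Immediate early genes, which respond within minutes to growth factors and stress, were mostly on the lower side. Of 20 tested genes 19 had a negative difference and 7 were lower without overlap, beside 9.73% of all genes. Fosl1, a subunit of the AP-1 transcription factor, had 7.68 and 23.6 CPM in naive skin and 1.05, 2.81 and 0.868 CPM in 3x (adjusted p = 0.491 for a log2 fold change of -2.58, SE 0.70). Myc, a regulator of cell growth, had 79.0 and 106 CPM against 50.4, 54.6 and 34.7 CPM (log2 fold change -0.99, SE 0.24, adjusted p = 0.409). The list's median of -0.67 depended on naive replicate 2, in which these genes were highest: it was -0.15 without that library and -1.14 without naive replicate 1.

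Interferon response genes were lower in 20 of 25 cases, 9 of them without overlap, beside 9.73% of all genes, with a median of -0.31. Ifit3, an antiviral protein induced by interferon, had 21.96 and 19.2 CPM in naive skin and 9.35, 10.9 and 7.34 CPM in 3x (adjusted p = 0.403 for a log2 fold change of -1.09, SE 0.26). Its naive values were close together and all 3x values lay at or under 10.9 CPM. Without 3x replicate 3 the list's median was -0.12. Leaving out naive replicate 1 gave -0.19, and leaving out 3x replicate 1 or 2 gave -0.47. Ifit3 and its neighbour Ifit3b are close copies and may share reads.

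Cell cycle genes had a negative difference in 19 of 21 cases, none without overlap, and the median was -0.42. It became -0.16 and -0.72 without naive replicates 1 and 2, and -0.69 and -0.13 without 3x replicates 2 and 3. Mki67, the proliferation antigen, had 124 and 91.1 CPM in naive skin and 67.7, 108 and 34.9 CPM in 3x. All 21 lay below 2x in the fit, with a median of -0.68 against 2x. The hair follicle list, whose growing cells divide, also varied: 3x replicate 3, with the lowest Mki67, had the lowest follicle mean. Naive replicate 2 had a low follicle mean too, 1.10, with Mki67 at 91.1 CPM. In 3x replicate 1 the follicle mean was 5.01 and Mki67 stood at 67.7 CPM. With the hair follicle list as a covariate the cell cycle median was -0.41. The follicle list itself differed little between the groups (median -0.04), so this covariate could hardly move the comparison. The part of the follicle in the cell cycle values was not tested.

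Genes of red blood cells stood higher in 3x. Of 6 tested genes 4 were higher without overlap, beside 15.4% of all genes, and none lower. The median was 0.78, and between 0.73 and 1.03 when 1 of the 5 libraries was left out. Hba-a1, alpha globin, had 85.5 and 101 CPM in naive skin and 195, 236 and 284 CPM in 3x (adjusted p = 0.782 for a log2 fold change of 1.34, SE 0.79), a copy nearly identical to Hba-a2. Alas2, the first enzyme of haem synthesis in red cells, had 5.81 and 8.31 CPM against 12.9, 14.6 and 13.1 CPM (log2 fold change 0.87, SE 0.27, adjusted p = 0.563). For both genes 3x replicate 3 was like the others. In 2x Alas2 stood at 6.78, 6.76 and 6.77 CPM, inside the naive range. The globins differed from it: Hba-a1 stood at 109, 168 and 252 CPM in 2x, above both naive libraries and overlapping 3x. Hba-a2 did likewise, at 71.9, 124 and 163 CPM.

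Clock genes stood apart in both directions, 4 of 17 higher and 4 lower without overlap, beside 15.4% and 9.73% of all genes. The median was -0.03, and between -0.15 and 0.26 when 1 of the 5 libraries was left out. Ciart, a repressor in the clock's output, had 1.44 and 1.92 CPM in naive skin and 3.55, 3.46 and 5.08 CPM in 3x (adjusted p = 0.409 for a log2 fold change of 0.90, SE 0.22). Per1, a clock repressor that also responds to glucocorticoids, had 112 and 219 CPM against 72.4, 101 and 102 CPM, and Cry1 had 18.6 and 15.2 CPM against 8.42, 10.1 and 11.8 CPM. The hour at which biopsies were taken is not given in the sources used here.

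The remaining lists had at most 3 members without overlap, beside 15.4% and 9.73% of all genes. On the lower side Schwann cell and complement genes were above that 9.73%, and the others were near or below these shares. Skeletal muscle genes had a negative difference in 26 of 26 cases but overlapped in all of them, with a median of -0.90 that became -1.77 without 3x replicate 3 and -0.37 without naive replicate 1. It was -0.31 and -0.61 without 3x replicates 1 and 2. The hair follicle median was -0.04, and 3.66 and -3.76 without naive replicates 1 and 2, or -0.49, -1.35 and 1.82 without 3x replicates 1, 2 and 3. Melanocyte genes followed, with medians of 1.11 and -1.69 in the same settings and -0.30 over all 5 libraries, or -0.82 and 0.27 without 3x replicates 2 and 3. The median was -0.36 for Schwann cell genes, 3 of 11 being lower without overlap, and it became -0.13 without 3x replicate 1. For endothelial genes, 2 of 17 being lower, it was -0.01 and lay between -0.29 and 0.14 when 1 of the 5 libraries was left out. For lymphatic vessel genes it was -0.41, or -0.86 and 0.10 without naive replicates 1 and 2. Complement genes had 3 of 18 lower without overlap and a median of 0.02, between -0.14 and 0.30 over the same settings. Clotting genes had 2 of 20 higher and 1 lower with a median of 0.08, between -0.18 and 0.33.

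**Figure D4:**
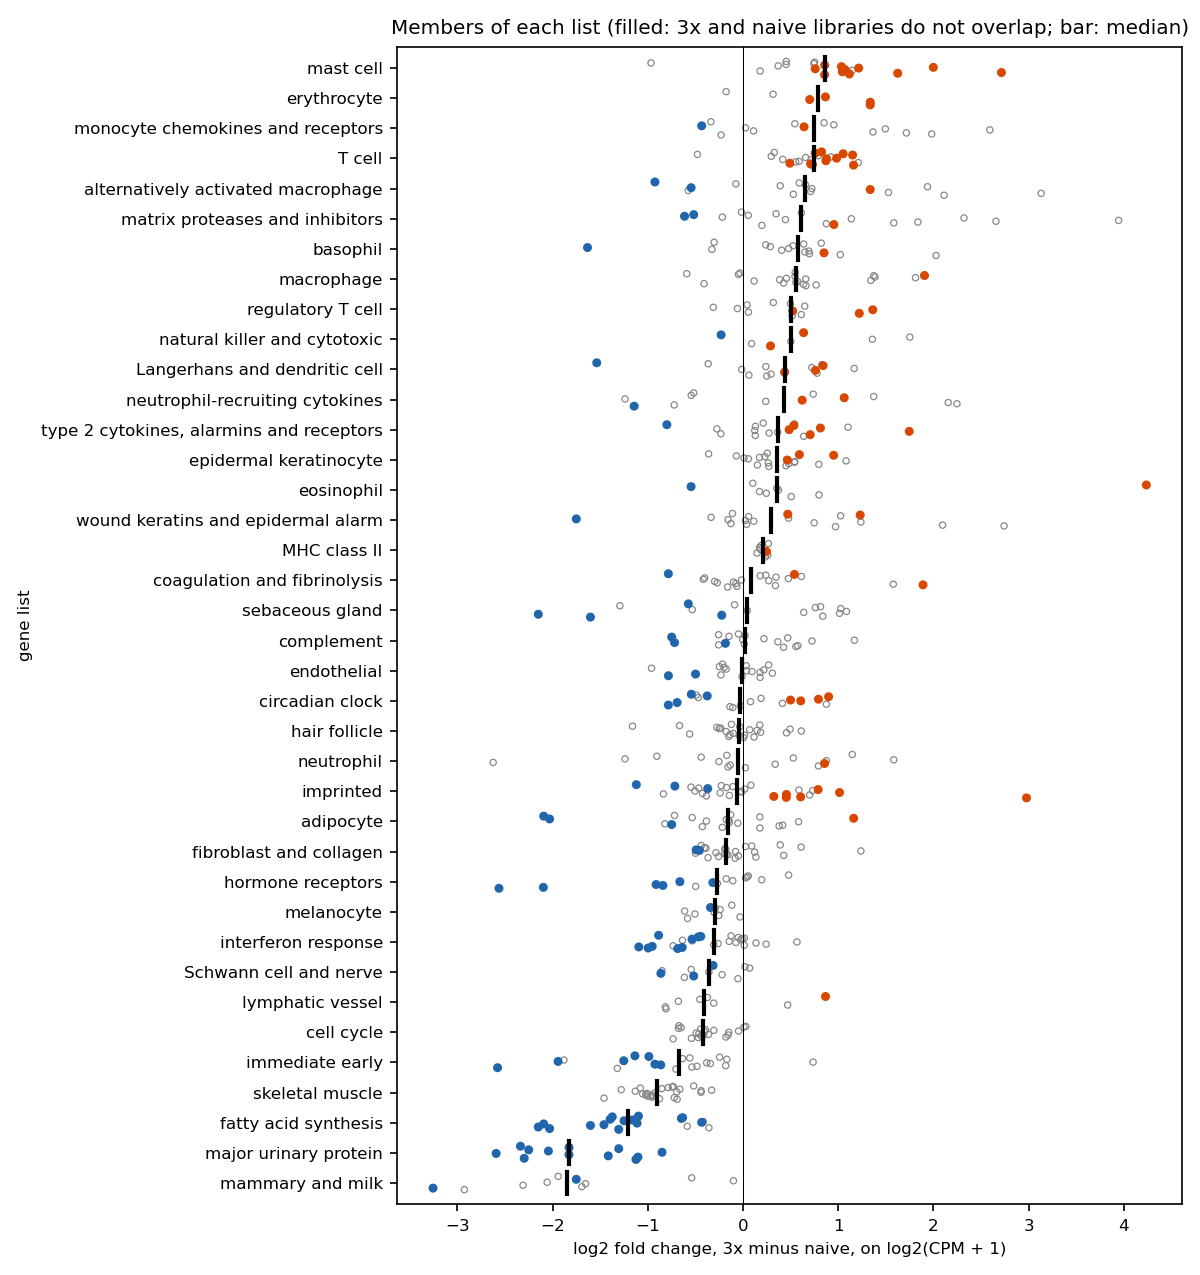
Log2 fold change of 3x over naive on log2(CPM + 1) for the tested members of each list with at least 5 of them, with lists ordered by their median (black bar). Filled points are genes whose 3x and naive libraries do not overlap (orange higher, blue lower); the medians run from -1.85 for mammary genes to 0.86 for mast cell genes, and the skeletal muscle points are all open.

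To see where 3x differs from the group most like it, the same fit compared it with 2x, without the naive libraries in the contrast. No gene was called higher or lower (0.0% each), and at an unadjusted p below 0.05 there were 603 higher (3.75%) and 252 lower (1.57%). Libraries did not overlap for 1215 genes on the higher side (7.55%) and 721 on the lower (4.48%). With voom none was called either. Besides Nnat and Pgr, both described above, Oxtr had all 3x libraries above 2x, with a log2 fold change of 0.95 (adjusted p = 0.864). Rnase2a did not differ in a fixed direction: its log2 fold change against 2x was -0.03, and it ranged from -0.58 to 0.85 over the settings tried. Neutrophil-recruiting genes were lower than in 2x in 10 of 12 cases with a median of -1.47. Il1b stood at 19.1, 329 and 122 CPM in 2x, a range that holds the 3x values of replicates 1 and 2.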

How the data were processed

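Skin RNA sequencing libraries were processed by the authors with STAR and Partek 8.0.19 on GRCm38.p6, per the submitters' processing notes. RNA was isolated with a Qiagen kit, per the labels. The deposited table gives CPM for 25070 genes, with 0.0001 added by the authors to every value. The sources used here do not give the annotation, the counting program or its use of strand. Names in the form of dates stand for 25 genes. Symbols were matched to RefSeq (GRCm38.p6) for 22654 genes (90.4%).

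Whole reads could not be recovered: between 75.5% and 79.3% of values from 0.01 to 3 CPM were whole multiples of 1 step, within 0.02 reads. The step gave the depths. Genes that reached 1 CPM in 2 or more of the 5 libraries were compared with limma 3.58.1 (R 4.3.3, variance trend) on log2(CPM + 1), which understates differences of low genes. The fit held 11 libraries of 4 groups (7 residual degrees of freedom). The single saliva immune library stayed out of it.

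Members, lists and tests were chosen with earlier results of these data known. The text names the called gene, the 12 largest differences on each side among genes without overlap and with a group mean of at least 5 CPM (predicted genes and receptor or antibody segments left out), up to 4 genes per list by level or moderated t, and a fixed set: Nnat, Il4, Il13, Mcpt8, Mcpt4, Cpa3, Cd4, Cd207, Krt6a, Oxtr and Pgr. Blcap, Prlr, Adipoq, Tpsb2 and Arg1 were named after their values were seen. The 37 lists hold 647 genes, 634 of them in the table; the fatty acid and Mup lists were added later. The test was checked on simulated data. Promoter windows were aligned with Biopython 1.88; figures used matplotlib 3.10.9 and tables pandas 2.3.3 with numpy 2.4.6 in Python 3.11.15.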

Additional observations from a re-analysis of the deposited data

Results flagged for a closer look

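Nnat gave a signal in a library that enters no comparison: the saliva immune library had 9.36 CPM, above both naive libraries (4.97 and 6.39 CPM) and below every 3x library. Alas2 lay on opposite sides of the naive mean in the 2 repeat exposure groups, above it in all 3x libraries and below it in all 2x libraries. The means of 3x and 2x differed by 6.75 CPM. The 2x values of Alas2 (6.78, 6.76 and 6.77 CPM) lay inside the naive range of 5.81 to 8.31 CPM. Within the fit of all genes, 3x and 2x did not differ for it at the threshold (limma log2 fold change 0.90, adjusted p = 0.864).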

How the results depend on the processing

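The count of genes called in 3x against naive skin, 1 higher and 0 lower, became 85 and 47 with array weights, 0 and 0 with only the 2 groups compared, with the skeletal muscle covariate and with voom. It was 1 and 4 with no filter on low values and 1 and 1 with quantile normalization. Leaving out 1 library gave 0 to 1 higher and 0 lower. Of these, leaving out a 2x or first exposure library was chosen after seeing the data. The count of 0 higher in 3x against 2x stayed at 0 except without 3x replicate 3, where it was 1, so leaving out 1 library gave 0 to 1. Rnase2a against 2x, -0.03 in the comparison reported, turned to 0.44 with array weights and 0.15 with the skeletal muscle covariate, and leaving out 1 library gave -0.58 to 0.85, with 0.19 and 0.14 without 2x replicates 2 and 3. Cd207 against naive skin, at 0.25, turned to -0.16 without naive replicate 1, and leaving out 1 library gave up to 0.66. Among 993 values of 50 named genes against naive skin under the alternatives, 967 kept their direction and their side of the threshold, 12 lost a call (all of them Nnat), 13 gained one and 1 turned. Of 799 list medians (37 lists, the 2 added ones and all genes), 30 moved by more than the spread between libraries. No paired analysis was possible because the labels tie no 3x library to a naive one. With 2 naive libraries, 1 of them at 12.5 M reads, genes under about 0.24 CPM cannot be told from 0 there.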
